A study of Rattus norvegicus with 84 samples.

Results

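The constitutive subunits of the proteasome were described in kidney, liver and gastrocnemius muscle of rats. The members were taken by name, as loci whose symbol is Psma, Psmb, Psmc or Psmd followed by a number, leaving out the immunoproteasome subunits Psmb8, Psmb9 and Psmb10. This gave 35 members of the 17502 loci in the tables, each with 1 locus. A further alpha subunit stands in the tables only under the joined name Psma3|Psma3l and was therefore not taken. Total RNA was sequenced in 84 libraries from male rats of the outbred Sprague Dawley strain. Each tissue has 10 libraries of young rats on vehicle, 10 of aged rats on vehicle and 8 of aged rats on RAD001, called treated here. Young rats were 6 months old at the end of 6 weeks of dosing that began at 4.5 months, and aged and treated rats were 24 months old after dosing from 22.5 months. RAD001 is everolimus, a rapalog that inhibits the kinase complex mTORC1. Treated rats received 7 oral doses, 1 a week, with vehicle on the remaining days, and vehicle groups received the methylcellulose vehicle alone. The labels used here give no dose in mg, and no young rats received RAD001, so an effect of RAD001 at the young age is not in the design. How libraries map to individual rats is not stated in the labels, so p-values measure only the spread between libraries, which may be partly technical.

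The proteasome is the protease that degrades proteins tagged with ubiquitin. Its core particle is a barrel of stacked rings, in which alpha subunits (Psma genes) form the outer gates and beta subunits (Psmb genes) form the inner chamber. The beta subunits Psmb5, Psmb6 and Psmb7 hold the active sites. The regulatory particle caps the barrel: its base holds a ring of ATPases (Psmc genes) that unfold the substrate and pull it in, and its lid (most Psmd genes) removes the ubiquitin chain. Psmd5, Psmd9 and Psmd10 are chaperones of base assembly and are not part of the finished particle. In mammalian cells the transcription factor Nrf1 (gene Nfe2l1) raises proteasome genes as a set when proteasome activity is short, through antioxidant response elements in their promoters. In muscle, the ubiquitin-proteasome system degrades contractile proteins during wasting. mTORC1 has been linked in cultured cells both to higher proteasome gene expression and to lower proteolysis, so its inhibition has no single textbook outcome for these genes.

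The core of the antioxidant response element was searched as TGACNNNGC on both strands in promoters from RefSeq (rat build GRCr8), each running from 250 bases before to 50 bases after the annotated start. Promoters matched 30 of the 35 members, and Psma7, Psmb11, Psmd6, Psmd12 and Psmd14 were not matched. Of the 30, 6 held at least 1 match (20%), against 12.1% of all 33469 promoters in the same table and 12.5% of the 21851 promoters of protein-coding genes. These 6 are Psmb2, Psmb5, Psmb6, Psmd1, Psmd3 and Psmd9. A match is a description of letters and was not read as a bound site. The 250 bases before the start are shown for 4 of them that had a match there on the gene's own strand. These 4 differ in their response. Psmb2 and Psmb5, from the core particle, rose under RAD001 in kidney, and Psmb6 was not called there. Psmd1, from the base, rose with age in gastrocnemius and fell with age in kidney and liver. Each stretch runs 5' to 3' on the strand of the gene, with the match in capitals. The stretches are chr5:144254808-144255057, plus strand, for Psmb2, chr15:32047380-32047629, minus strand, for Psmb5, chr10:55737638-55737887, plus strand, for Psmb6, and chr9:94157721-94157970, plus strand, for Psmd1.
Psmb2: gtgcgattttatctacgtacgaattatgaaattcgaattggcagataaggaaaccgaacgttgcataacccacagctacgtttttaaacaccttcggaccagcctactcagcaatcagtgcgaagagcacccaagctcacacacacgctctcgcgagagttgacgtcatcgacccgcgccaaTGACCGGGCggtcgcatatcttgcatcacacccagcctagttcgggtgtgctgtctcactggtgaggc
Psmb5: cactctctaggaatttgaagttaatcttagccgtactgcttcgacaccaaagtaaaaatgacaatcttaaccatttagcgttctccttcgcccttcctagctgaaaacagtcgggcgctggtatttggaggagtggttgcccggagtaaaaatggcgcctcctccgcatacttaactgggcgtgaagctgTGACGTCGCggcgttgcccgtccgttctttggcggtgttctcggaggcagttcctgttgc
Psmb6: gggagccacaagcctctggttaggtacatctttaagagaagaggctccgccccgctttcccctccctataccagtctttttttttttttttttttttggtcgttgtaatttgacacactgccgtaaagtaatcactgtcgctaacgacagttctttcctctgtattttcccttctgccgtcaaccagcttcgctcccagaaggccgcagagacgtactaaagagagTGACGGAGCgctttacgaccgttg
Psmd1: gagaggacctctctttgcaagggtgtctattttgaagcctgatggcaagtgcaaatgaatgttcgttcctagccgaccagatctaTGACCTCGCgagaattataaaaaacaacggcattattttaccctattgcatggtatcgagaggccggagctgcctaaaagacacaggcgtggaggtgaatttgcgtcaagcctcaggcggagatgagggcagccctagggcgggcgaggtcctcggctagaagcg
The match begins at base -68 from the start in Psmb2, at -60 in Psmb5 and at -24 in Psmb6. Among members with a promoter, 2 of the 17 that rose with age in gastrocnemius held the motif (11.8%), as did 4 of the 13 that did not (30.8%).

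Values are a coverage signal per base of exon, as deposited and then scaled between libraries of a tissue, and changes are differences of log2(scaled signal + 0.1). A call means an adjusted p under 0.05 by limma with Benjamini-Hochberg adjustment over all loci tested in that tissue. Relative depth spanned 0.807 to 1.38 between libraries, and 11697 to 13767 loci had a signal above 0. The tissue labels fitted their defining markers. Summed kidney markers (Umod, Slc34a1 and the like) spanned 116 to 201 in kidney and at most 0.246 in the other tissues, liver markers (Alb, Apob and the like) 3311 to 6973 in liver and at most 19.5 elsewhere, and muscle markers (Acta1, Ckm and the like) 2291 to 3611 in gastrocnemius. Muscle markers reached 6.25 in treated kidney, against at most 0.108 in the vehicle kidneys. All samples are powdered whole tissue, in which fewer cells of a type and less RNA per cell cannot be told apart.

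Of the 35 members, 33 passed the filter on low values in every tissue. The remaining members were Psma8, an alpha subunit of the testis proteasome, and Psmb11, a catalytic subunit of the thymus. The highest library held a scaled signal of 0.0164 for Psma8 and 0.00765 for Psmb11, and the deposited value was 0 in 59 and 77 of the 84 libraries. The 33 measured members were compared between young tissues after scaling all 84 libraries together. In young gastrocnemius the highest levels were those of beta subunits, Psmb1 with 17.6 ± 1.55 (SD, n = 10), Psmb4 with 14.9 ± 1.52 and the catalytic Psmb5 with 14.1 ± 0.863. The levels of Psmb1 (15.4 to 20.4) and Psmb4 (12.4 to 17.0) overlapped between libraries, as did those of Psmb4 and Psmb5. In young kidney Psmb4 (9.19 ± 0.564) and Psmb1 (8.88 ± 0.465) overlapped at the top, and in young liver they stood at 11.2 and 11.2. The lowest measured member in each tissue was the locus named Psmd10, from 0.469 in gastrocnemius to 0.543 in kidney. Its place in the genome differs from that of the chaperone gene in RefSeq, so it may not hold the functional gene. The next lowest was the chaperone Psmd9 in kidney and gastrocnemius (0.711 and 0.675) and the lid subunit Psmd3 in liver (1.12). The order of the 33 levels was alike between tissues, with Spearman's rho of 0.922 for kidney and liver, 0.920 for kidney and gastrocnemius and 0.828 for liver and gastrocnemius. These correlations are across genes that share each tissue's libraries and gene models.

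**Figure D1:**
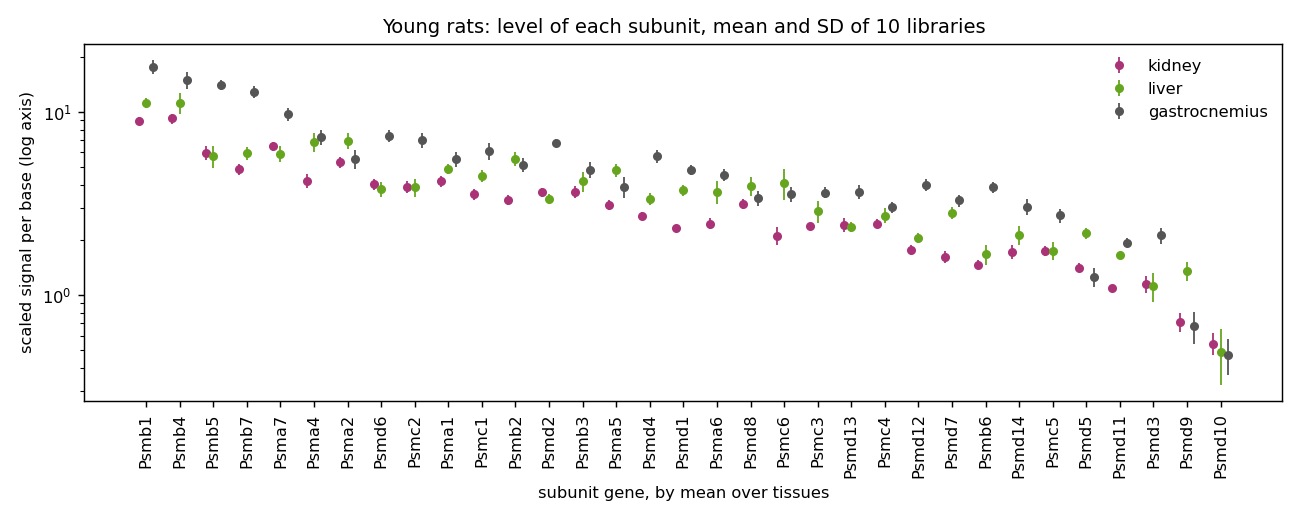
Scaled signal per base (log axis) of the 33 measured members in young rats, by gene on the horizontal axis, with points for the mean of 10 libraries and bars for the SD in each tissue. Beta subunits such as Psmb1 and Psmb4 stand highest in each tissue, and Psmd10 and Psmd9 lowest in kidney and gastrocnemius. The Psmd10 locus may not hold the functional gene.

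Young gastrocnemius held more signal of most members than young kidney or liver when the libraries were scaled to each other. Against kidney, 28 members were higher in gastrocnemius and 1, Psmd5, was higher in kidney, where 42.9% and 42.2% of all loci were called in those directions. Psmb7, which carries the trypsin-like active site, stood at 12.8 ± 0.961 in gastrocnemius and 4.87 in kidney, a log2 difference of -1.38 for kidney minus gastrocnemius (adjusted p = 1.1e-42). Against liver, 24 members were higher in gastrocnemius (43.8% of all loci) and 7 were higher in liver (43%). Those higher in liver included the chaperone Psmd9, with a log2 difference of 0.92 for liver minus gastrocnemius (adjusted p = 1.4e-17). Between kidney and liver, 24 members were higher in liver (38.2% of all loci) and 2, Psmd2 and Psma7, were higher in kidney (40.3%). The directions between tissues depend on scaling: with the values as deposited, kidney was higher than liver for 24 members and lower for 2, and higher than gastrocnemius for 14 and lower for 8, where the median of all loci itself moved to 0.61 and 0.66 on the log2 scale. Relative to those shifts the members' medians, 0.41 and 0.0311, still lay on the lower side in kidney.

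In gastrocnemius, proteasome subunits stood higher in aged than in young muscle. With age 18 of the 33 rose, where 17% of all loci rose, and 0 fell, where 18.4% of all loci fell (limma, with 1 of the 33 lower at an unadjusted p under 0.05). The mean was higher for 27 of the 33, and the median log2 change of the members was 0.138 against 0.00179 over the 8836 loci tested. The rises were small, from 9.19% to 24.1% on the fit's scale. By place in the particle, 3 of 6 measured alpha subunits rose, 2 of 4 beta subunits without an active site, 4 of 6 ATPases, 2 of 3 scaffold and receptor subunits of the base, 6 of 8 lid subunits and 1 of 3 chaperones. Of the 3 catalytic subunits 0 passed the test (limma; Psmb7 was higher at an unadjusted p under 0.05), and they were not tested against the other parts. Among the ATPases, Psmc3 lost its call in 9 of the 28 fits that left out 1 library (young replicates 1, 4, 7, 8 and 9 and aged replicates 1, 2, 4 and 5), and Psmc6 in 4 (young replicates 2 and 8 and aged replicates 1 and 4).

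Psma1, an alpha subunit, had signals from 3.45 to 4.95 with a median of 4.66 in the 10 young libraries and from 5.06 to 6.06 with a median of 5.26 in the 10 aged ones. Every aged library lay above every young one, and the log2 change was 0.25 (SE 0.053, adjusted p = 0.000376). Psma5, another alpha subunit, ran from 2.65 to 3.95 (median 3.18) in young and from 3.52 to 4.37 (median 3.89) in aged muscle. These ranges overlapped, with 5 aged libraries above the highest young one, and the log2 change was 0.28 (SE 0.061, adjusted p = 0.000516). Psmd11, a lid subunit whose worm counterpart extends lifespan when raised, ran from 1.39 to 1.69 (median 1.59) in young and from 1.69 to 2.65 (median 2.00) in aged libraries. Of the aged libraries 9 lay above the highest young one, with a log2 change of 0.31 (SE 0.069, adjusted p = 0.000649). The Psmd11 locus overlaps Rnf135 on the same strand, so its signal may include reads of that gene.

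The catalytic subunits did not pass the test with age in muscle. Psmb5, which carries the chymotrypsin-like site, ran from 10.1 to 12.6 in young and from 10.6 to 12.0 in aged libraries, with a log2 change of -0.0047 (adjusted p = 0.948, 95% interval from -0.094 to 0.085). Psmb6, which carries the caspase-like site, had means of 3.18 and 2.95, a log2 change of -0.11 (adjusted p = 0.161). Psmb7 had means of 10.5 and 11.3, a log2 change of 0.10 (adjusted p = 0.0822). The alpha subunit under the joined name Psma3|Psma3l went the other way, from 1.37 ± 0.115 to 1.24 ± 0.0821, a log2 change of -0.13 (adjusted p = 0.0389).

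The median over the 33 members in each library, taken against the young means, shows the same shift library by library. It ran from -0.156 to 0.134 in young muscle, from 0.0822 to 0.236 in aged muscle and from -0.0602 to 0.15 in treated muscle, with medians of -0.00167, 0.132 and -0.0334. Young and aged libraries overlapped. In treated muscle replicate 2 stood at 0.15 and the other libraries at 0.0147 or below. In aged muscle at least 25 of the 33 members lay above their young mean in every library, and in young muscle between 2 and 30 did. Most pairs of members were positively correlated between libraries of a group. After removing group means, the mean correlation over the 528 pairs of members was 0.384 in gastrocnemius, 0.257 in kidney and 0.195 in liver. Of these pairs 492, 427 and 382 were above 0, and Psmd9 averaged -0.177 with the other members in gastrocnemius. Over all loci the mean was at most 0.000674, but scaling between libraries holds it near 0, so it is no benchmark. The pairs of members share libraries, depth and scaling, and are given as a description.

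**Figure D2:**
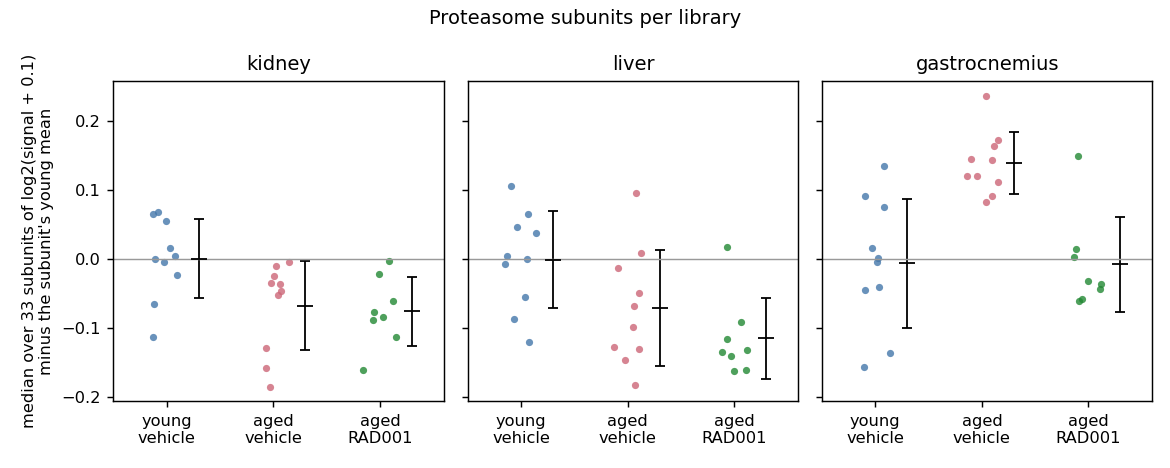
Median over the 33 measured members of log2(signal + 0.1) minus each member's mean in young libraries (vertical axis), for every library of each group, with 10 young, 10 aged and 8 treated libraries per tissue. Points are libraries, and the bar beside them is the mean with its SD; aged gastrocnemius runs from 0.0822 to 0.236.

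Other cell types also moved with age in this muscle. Macrophage markers rose for 9 of the 10 measured, and their summed signal ran from 6.14 to 8.03 in young, 8.16 to 11.8 in aged and 5.60 to 12.0 in treated libraries. Muscle markers fell for 5 of 6 (sum 3280 to 3611 in young, 2291 to 3338 in aged and 2828 to 3380 in treated), fibroblast markers for 3 of 6 (23.1 to 44.8, 19.4 to 29.0 and 18.2 to 28.4) and endothelium markers for 3 of 5 (2.35 to 2.79, 1.88 to 2.58 and 1.75 to 2.65). T cell markers reached at most 0.675 in sum, and 1 of 8 was measured and not called. Adipocyte markers ran from 2.95 to 5.71 in young, 3.53 to 11.1 in aged and 3.86 to 10.99 in treated libraries, and 0 of 3 were called with age (limma, 1 higher at an unadjusted p under 0.05). With RAD001, 0 of 10 macrophage, 0 of 6 muscle, 0 of 5 endothelium and 0 of 3 adipocyte markers were called by limma (at an unadjusted p under 0.05, 1 macrophage marker was lower, 2 muscle markers higher and 1 lower, and 2 endothelium markers higher), and 1 of 6 fibroblast markers, Lum, rose. The part of these cell types in the changes of the subunits was not tested.

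RAD001 lowered proteasome subunits in aged gastrocnemius. Against aged vehicle, 8 of the 33 fell, where 1.65% of all loci fell, and 0 rose, where 1.72% of all loci rose (limma, 0 also at an unadjusted p under 0.05, and 19 lower at that p). The mean was lower for 31 of 33, with a median log2 change of -0.127 against -0.000897 over all loci. Those that fell were Psma1, Psma2 and Psma5 of the alpha ring, Psmb1, Psmb4 and Psmb7 of the beta rings, the ATPase Psmc6, and Psmd14, the lid enzyme that cuts off ubiquitin chains. The falls lay between 14.8% and 18.3%. Psma5 was close to the threshold, with a log2 change of -0.23 (adjusted p = 0.0419). It lost its call without any 1 of aged replicates 1, 4, 5, 6, 9 and 10 or treated replicates 3, 5, 6, 7, 8 and 9 (adjusted p from 0.0509 to 0.0911), with no filter (0.0833), with the replicate block (0.055) and with the 7SL covariate (0.084). This comparison and that of age share the aged vehicle libraries, so a high aged group raises the change with age and deepens the change with RAD001 at once.

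Psmb4, a beta subunit without an active site, ran from 13.2 to 15.1 (median 13.7) in aged and from 10.3 to 13.2 (median 11.3) in treated libraries, with young libraries from 10.1 to 13.9. Of the 8 treated libraries, 7 lay below the lowest aged one, and the log2 change was -0.28 (SE 0.055, adjusted p = 0.0059). The catalytic Psmb7 ran from 10.02 to 12.11 (median 11.4) in aged and from 8.89 to 10.95 (median 9.30) in treated muscle. Of these treated libraries 7 lay below the lowest aged one, and the log2 change was -0.24 (SE 0.046, adjusted p = 0.00597). Psma1 ran from 4.12 to 4.95 (median 4.46) in treated libraries, all 8 below every aged library, with a log2 change of -0.27 (SE 0.056, adjusted p = 0.00879). For Psmb5 the treated mean was 10.7 ± 0.912 against 11.5 ± 0.455 in aged muscle (adjusted p = 0.178), and for Psmb6 2.60 ± 0.328 against 2.95 ± 0.28 (adjusted p = 0.0904).

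Between treated and young muscle, members were called no more often than all loci with the filter used here. Raised against young were 3 members (9.09%), where 17.9% of all loci rose, and lowered were 5 (15.2%), where 18.6% of all loci fell. Psmd11 (treated range 1.67 to 2.55, log2 change 0.28, adjusted p = 0.00276), the lid subunit Psmd8 (2.83 to 3.71 against 2.42 to 3.18 in young, 0.19, adjusted p = 0.0181) and the beta subunit Psmb3 (3.78 to 6.54 against 3.37 to 4.53, 0.23, adjusted p = 0.0342) were higher. Reads of Rnf135 may again be part of the Psmd11 signal. The alpha subunit Psma7 ran from 6.26 to 7.10 in treated and from 7.13 to 9.09 in young libraries, without overlap, a log2 change of -0.26 (SE 0.052, adjusted p = 0.00025). Psmb6 fell as well, from 3.18 ± 0.213 in young to 2.60 ± 0.328 in treated muscle (log2 change -0.29, adjusted p = 0.000497), and the alpha subunit Psma6 from 3.72 to 3.27 (-0.18, adjusted p = 0.0139). Psmb7 had a log2 change of -0.14 (adjusted p = 0.0186), and Psmb5 of -0.11 (adjusted p = 0.0581). Single libraries bore on these rises: without treated replicate 2 the raised count was 1, with Psmd8 at 0.16 (adjusted p = 0.0513) and Psmb3 at 0.16 (adjusted p = 0.108), and without treated replicate 3 it was 5; Psmb3 also lost its call without young replicates 4, 7 or 8 or treated replicate 1 (adjusted p = 0.0645, 0.0556, 0.0605 and 0.0538).

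With the values as deposited, where the median of all loci with age moved to 0.121, 0 members fell with RAD001 and 0 fell against young, although the size of the RAD001 change was no smaller (median -0.199, against -0.0601 over all loci). The share of all loci called in that fit was not computed, so these counts cannot be read as particular to the members. Without the 4 libraries whose adipocyte markers summed to 8 or more, 4 members in place of 8 fell with RAD001, while 12 did without treated replicate 2. With a filter of at least 1 in 8 libraries, more members were raised than lowered in treated against young muscle. Psma6 and Psmb7 then lost their calls (limma, adjusted p = 0.0959 and 0.163). The share of all loci called was not computed for these fits either.

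**Figure D3:**
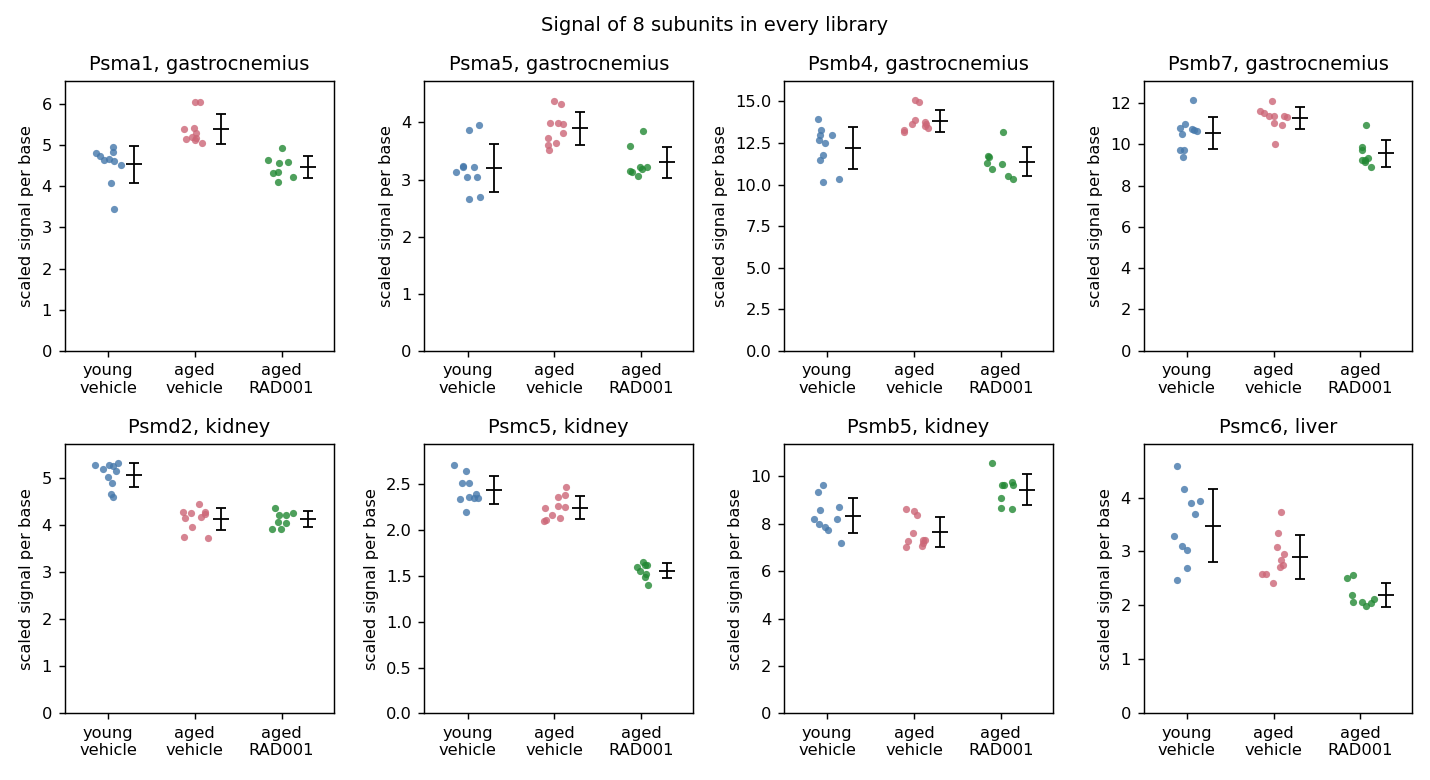
Scaled signal per base (vertical axis, from 0) of 8 members in every library of the 3 groups, 4 in gastrocnemius, 3 in kidney and 1 in liver, with points for libraries and bars for the mean and SD. All 8 treated kidneys lie below every vehicle kidney for Psmc5, and all 10 aged muscles lie above every young muscle for Psma1.

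In kidney, the members that fell with age were a share close to that of all loci. With age 9 of the 33 fell (27.3%), where 22.2% of all loci fell, and 0 rose, where 20.8% of all loci rose (limma, 0 also at an unadjusted p under 0.05). The median log2 change of the members was -0.0701, against -0.00075 over 10447 loci. The 9 were scaffold subunits of the base (Psmd1 and Psmd2), ATPases (Psmc4 and Psmc5), lid subunits (Psmd3, Psmd11, Psmd12 and Psmd13) and the chaperone Psmd9. Of the core particle 0 of 6 alpha subunits, 0 of 3 catalytic and 0 of 4 other beta subunits were called (limma; Psmb5 and Psmb7 were lower at an unadjusted p under 0.05), and the core was not tested against the regulatory particle. In fits that left out 1 of the 28 libraries, Psmd9 lost its call in 12 (young replicates 1, 2, 6, 7 and 9 and aged replicates 1, 4, 5, 6, 7, 9 and 10), Psmd3 in 4 (young replicate 1 and aged replicates 1, 4 and 7) and Psmc5 in 1 (young replicate 10).

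Psmd2, the scaffold on which shuttle factors for ubiquitinated proteins dock, ran from 4.61 to 5.31 (median 5.17) in young and from 3.73 to 4.46 (median 4.204) in aged kidney. All 10 aged libraries lay below every young one, and the log2 change was -0.29 (SE 0.037, adjusted p = 1.09e-06). Psmd1, the companion scaffold, ran from 3.05 to 3.47 (median 3.22) in young and from 2.77 to 3.18 (median 2.83) in aged kidney, with 9 aged libraries below the lowest young one (log2 change -0.16, SE 0.033, adjusted p = 0.000236). The Psmd1 locus overlaps Htr2b on the opposite strand, and the sources used here do not say whether reads keep their strand. Psmd12, a lid subunit, ran from 2.25 to 2.78 in young and from 1.92 to 2.39 in aged kidney (log2 change -0.17, SE 0.039, adjusted p = 0.000833). Of the catalytic subunits, Psmb5 had a log2 change of -0.13 (adjusted p = 0.0511), Psmb7 of -0.10 (adjusted p = 0.0886) and Psmb6 of -0.02 (adjusted p = 0.764). The count of members that fell was not the same in every setting. All of these calls stayed under median-of-ratios scaling, while 4 members fell under upper-quartile scaling and 1 with the values as deposited. In these last settings the median of the members was -0.0073 and -0.013 and that of all loci 0.0537 and 0.0486. With a filter of at least 1 in 8 libraries fewer members fell too and some rose, as counted in the last section. Psmd12 and Psmc5 lost their calls with that filter (limma, adjusted p = 0.0538 and 0.554). As deposited, Psmc5, Psmd12 and Psmd1 lost theirs (limma, adjusted p = 0.402, 0.0949 and 0.147). The share of all loci called was not computed for these settings, and the cause of the lower counts was not tested.

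With RAD001 in kidney the members were called about as often as all loci in either direction. Against aged vehicle 7 members rose (21.2%), where 18.3% of all loci rose, and 7 fell (21.2%), where 19.1% of all loci fell, and the median was 0.00497. Those that rose were Psmb5 among the 3 catalytic subunits and Psmb1, Psmb2 and Psmb4 among the 4 other beta subunits, with the alpha subunit Psma1, the lid subunit Psmd8 and the chaperone Psmd9. Those that fell were Psma5, Psma7, the ATPases Psmc3 and Psmc5, the ubiquitin receptor Psmd4, and the lid subunits Psmd7 and Psmd12. Psma1 lost its call without aged replicate 1 or treated replicates 5, 6, 8 or 9, and Psmc3 without treated replicate 1.

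Psmc5, an ATPase of the base, had the largest change of any member in kidney in the RAD001 comparison. Its signal ran from 2.20 to 2.71 (median 2.38) in young, from 2.10 to 2.47 (median 2.25) in aged and from 1.40 to 1.65 (median 1.57) in treated libraries. All 8 treated libraries lay below every vehicle library, the log2 change against aged vehicle was -0.50 (SE 0.042, adjusted p = 4.52e-10), and that against young was -0.61 (adjusted p = 7.51e-12). Psmc5 was not called in treated liver or muscle, and its RAD001 change differed between kidney and liver by -0.62 (adjusted p = 2.9e-08) and between kidney and gastrocnemius by -0.44 (adjusted p = 4.8e-05). The alpha subunit Psma5 ran from 3.87 to 4.90 (median 4.42) in aged and from 3.51 to 4.01 (median 3.72) in treated kidney, 5 of 8 below the lowest aged library (log2 change -0.24, SE 0.044, adjusted p = 0.000208). Psmd7, a lid subunit that pairs with Psmd14, ran from 1.98 to 2.28 in aged and from 1.69 to 1.96 in treated kidney, without overlap (log2 change -0.21, SE 0.044, adjusted p = 0.000615).

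Psmb5 ran from 7.02 to 8.62 (median 7.32) in aged and from 8.61 to 10.6 (median 9.63) in treated kidney, against 7.20 to 9.63 (median 8.20) in young. Of the treated libraries 7 lay above the highest aged one, and the log2 change was 0.30 (SE 0.055, adjusted p = 0.000136). Psmd8 ran from 3.69 to 4.69 in aged and from 4.30 to 4.94 in treated kidney (log2 change 0.20, SE 0.047, adjusted p = 0.00162), and Psmb4 from 11.2 to 14.7 and from 13.4 to 16.6 (0.21, SE 0.051, adjusted p = 0.00215). Psmb6 and Psmb7 had log2 changes of 0.03 and 0.00497 (adjusted p = 0.751 and 0.95). The signal RNA 7SL moved in the same libraries, from 21135 to 30455 in aged to 30657 to 39092 in treated kidney. With the log2 level of 7SL as a covariate, 0 members rose and 4 fell (limma), Psmb5 was at 0.10 (adjusted p = 0.44), and Psmc5 kept its call. The share of all loci called in this fit was not computed. The covariate was the deposited level, from 22484 to 27719 in young, 22242 to 30427 in aged and 27815 to 40949 in treated kidney. It nearly separates treated from vehicle kidneys, so this fit cannot tell a change with 7SL from one with RAD001.

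Against young kidney, treated kidney had 3 members raised, where 12% of all loci rose, and 13 lowered, where 14.5% of all loci fell. The lowered ones held 4 of 6 ATPases, all 3 scaffold and receptor subunits, 4 of 8 lid subunits and 2 alpha subunits. Psmd12 stood at 1.95 ± 0.0791 in treated and 2.45 ± 0.16 in young kidney (log2 change -0.31, adjusted p = 2.1e-06), and Psmd2 at 4.13 ± 0.167 and 5.06 ± 0.261 (-0.29, adjusted p = 3.43e-06), each with all 8 treated libraries below every young one. The raised ones were Psmb4 (log2 change 0.21, adjusted p = 0.0026), Psmb1 (13.8 ± 0.748 against 12.4 ± 0.684, 0.15, adjusted p = 0.0102) and Psmb5 (0.18, adjusted p = 0.0163). With the 7SL covariate, whose level did not overlap between young and treated kidney, 0 of these 3 kept the call (limma), and Psmb5 stood at -0.0172.

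Macrophage, T cell and fibroblast markers moved far more than the subunits in these kidneys. With age macrophage markers rose for 10 of 10, T cell markers for 7 of 7 and fibroblast markers for 6 of 6, while 3 of 6 kidney markers fell. RAD001 lowered 9 of 10 macrophage, 6 of 7 T cell and 5 of 6 fibroblast markers, and raised 3 of 6 kidney markers. Endothelium markers moved less: 2 of 5, Pecam1 and Kdr, fell with age (median log2 change -0.148) and 1, Tek, fell with RAD001 (median 0.0232). Summed macrophage markers ran from 5.84 to 8.62 in young, 8.81 to 23.8 in aged and 7.92 to 14.4 in treated libraries, T cell markers from 0.873 to 1.29, 1.37 to 4.19 and 1.07 to 2.32, and fibroblast markers from 10.5 to 14.9, 14.6 to 28.2 and 12.3 to 19.1. Muscle markers summed to at least 1 in 3 treated kidneys, and without these 4 of the 39 calls in kidney were lost, among them that of Psmb5 against young (adjusted p = 0.091). The part of other cell types in the subunit changes was not tested.

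**Figure D4:**
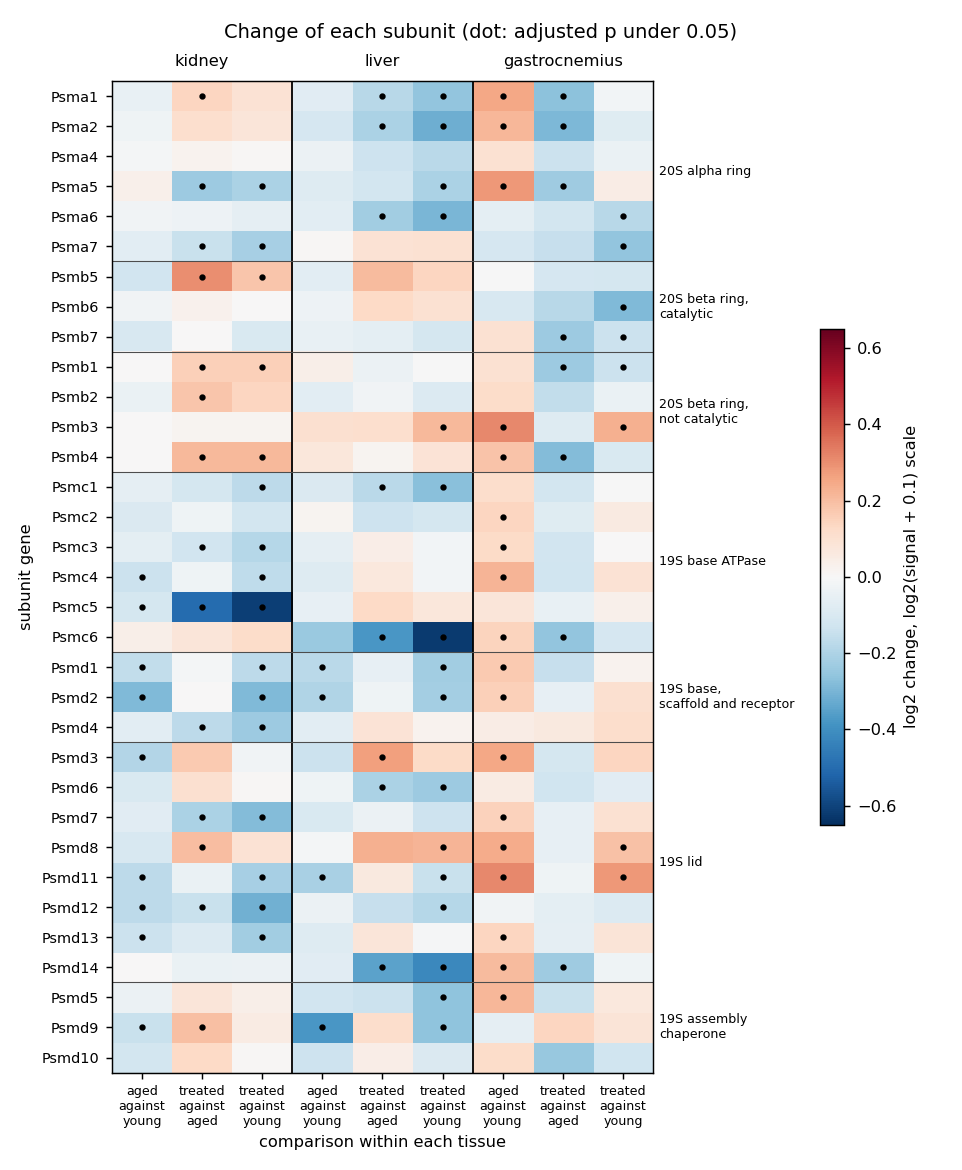
Log2 change of each of the 33 measured members (rows, grouped by place in the particle) in the 3 comparisons of each tissue (columns), in red where higher and blue where lower in the first-named group, with a dot where the adjusted p was under 0.05. With age 27 of the 33 members are higher in gastrocnemius, and the darkest cells are Psmc5 in treated kidney and Psmc6 in treated liver, each against young.

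In liver few members changed with age. Lowered were 4 of 33, where 8.71% of all loci fell, and 0 were raised, where 7.86% of all loci rose (limma, 0 also at an unadjusted p under 0.05). The median was -0.0708 against 0.00233 over 8991 loci. The 4 (12.1%) were the scaffolds Psmd1 and Psmd2, the lid subunit Psmd11 and the chaperone Psmd9. Psmd1 lost its call without any 1 of young replicates 5, 6, 8 and 10 or aged replicates 1, 2, 5, 6 and 10. Psmd11 ran from 1.36 to 1.496 (median 1.40) in young and from 1.12 to 1.38 (median 1.18) in aged liver, 9 of 10 below the lowest young library (log2 change -0.21, SE 0.041, adjusted p = 0.000559). Psmd9 ran from 0.897 to 1.36 in young and from 0.665 to 1.07 in aged liver (-0.38, SE 0.075, adjusted p = 0.000621). Psmd2 ran from 2.67 to 3.16 in young and from 2.27 to 2.66 in aged liver, without overlap (-0.19, SE 0.049, adjusted p = 0.00572). The catalytic Psmb5, Psmb6 and Psmb7 had log2 changes of -0.07, -0.03 and -0.05 (adjusted p = 0.573, 0.814 and 0.612).

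RAD001 lowered 7 members in aged liver, where 8.13% of all loci fell, and raised 1, where 7.62% of all loci rose, with a median of -0.0263. The 7 were the alpha subunits Psma1, Psma2 and Psma6, the ATPases Psmc1 and Psmc6, and the lid subunits Psmd6 and Psmd14. Psmd14, the deubiquitinase of the lid, ran from 1.42 to 2.22 (median 1.64) in aged and from 1.12 to 1.53 (median 1.34) in treated liver, 6 of 8 below the lowest aged library (log2 change -0.35, SE 0.083, adjusted p = 0.00903). Psmc6 ran from 2.41 to 3.74 (median 2.79) in aged and from 1.99 to 2.57 (median 2.10) in treated liver (-0.38, SE 0.098, adjusted p = 0.0122). Psmd6 ran from 2.86 to 3.50 and from 2.45 to 3.35 (-0.21, SE 0.062, adjusted p = 0.0242). The raised member was Psmd3, a lid subunit, from 0.772 to 0.950 in aged and from 0.972 to 1.13 in treated liver, all 8 above every aged library (0.26, SE 0.076, adjusted p = 0.0198). With the replicate block the adjusted p was 0.0502 for Psmd3 and 0.0637 for Psmd6, with the 7SL covariate 0.0777 and 0.0855, and for Psmd3 0.0595 with values as deposited. Psmb5 missed the threshold, with 4.64 ± 0.473 and 5.35 ± 0.233 (log2 change 0.21, adjusted p = 0.0509), as did Psmb6 (0.13, adjusted p = 0.258) and Psmb7 (-0.07, adjusted p = 0.468).

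The liver counts with RAD001 rested on few libraries. Without treated replicate 2 or 3 the lowered count was 2, with Psmd6 at -0.19 in each (adjusted p = 0.0533 and 0.0548), it was 3 or 4 without aged replicates 4, 7 or 8 or treated replicates 1, 7 or 8, and it was 1 without the 6 vehicle libraries whose 7SL signal was under 15000. Of the 28 fits that left out 1 library, Psma1 lost its call in 7, Psma2 in 10, Psma6 in 9 and Psmc1 in 8, in each case without an aged or a treated library. The 7SL signal ran from 11113 to 28355 in young, from 11558 to 24396 in aged and from 20268 to 24153 in treated liver. The raised count was 2 or 3 without young replicates 2, 3, 4 or 8 or aged replicates 2, 3 or 5. The share of all loci called was not computed for the fits with libraries left out. Macrophage markers rose with age for 5 of 10 in liver and for 8 of 10 in treated against young liver (sum 13.0 to 21.0 in young, 16.2 to 28.6 in aged and 21.1 to 30.2 in treated). Liver markers fell for 2 of 6 with age (Ttr and Cyp2e1), for 2 of 6 with RAD001 (Alb and Tat) and for 4 of 6 in treated against young liver (sum 4597 to 5422, 3577 to 6973 and 3311 to 5491). Fibroblast markers fell for 2 of 4 with age and for 2 of 4 in treated against young liver (3.52 to 4.04, 2.08 to 3.51 and 1.83 to 2.84), and endothelium markers for 1 of 5 in each comparison (2.797 to 3.38, 2.53 to 3.11 and 2.35 to 3.26). The 1 adipocyte marker measured, Cfd, rose with age and in treated against young liver. The part of these markers' cell types in the subunit changes was not tested. Treated replicate 9, which stood apart from the other treated livers in the median over the members, left 7 lowered and 1 raised against aged vehicle when it was left out.

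Against young liver, treated liver had 14 members lowered, where 18% of all loci fell, and 2 raised, where 17% of all loci rose, with a median of -0.115. Psmc6 went from 3.48 ± 0.679 in young to 2.20 ± 0.222 in treated liver (log2 change -0.62, SE 0.098, adjusted p = 2.44e-05), with 6 of 8 treated libraries below the lowest young one. Psmd14 had a log2 change of -0.42 (adjusted p = 0.000394), and Psmc1, an ATPase, of -0.27 (adjusted p = 0.000718), from 3.39 to 4.21 in young to 2.82 to 3.37 in treated liver, without overlap. Raised were Psmb3 (3.58 ± 0.447 to 4.14 ± 0.297, log2 change 0.21, adjusted p = 0.0145) and Psmd8 (3.36 ± 0.404 to 3.93 ± 0.382, 0.22, adjusted p = 0.0355). Psmd8 lost its call when any of young replicates 4, 5, 6 or 8 or treated replicates 6, 7 or 9 was left out (adjusted p from 0.0521 to 0.0897). Of the catalytic subunits Psmb5, Psmb6 and Psmb7 had log2 changes of 0.14, 0.10 and -0.12 (adjusted p = 0.131, 0.356 and 0.139).

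In a joint fit of all 84 libraries, taken as independent, over 7647 loci, the change with age differed between tissues. It differed between kidney and gastrocnemius for 15 of the 33 members, where 28% of all loci differed, and between liver and gastrocnemius for 17, where 25.9% of all loci differed. In each of these the change was lower in kidney or liver than in muscle. The largest differences were those of Psmd11, -0.46 for kidney and -0.51 for liver (adjusted p = 4.4e-07 and 3.1e-08), while for Psmd2 they were -0.42 and -0.34 (adjusted p = 2.3e-08 and 4e-06). The signal of Psmd11 may include reads of Rnf135, which its locus overlaps. Between kidney and liver 1 member differed, Psmc6 with 0.29 (adjusted p = 0.022), where 22.5% of all loci differed. The change with RAD001 differed for 13 members between kidney and gastrocnemius, where 22.2% of all loci did, for 10 between kidney and liver, where 26.9% did, and for 7 between liver and gastrocnemius, where 8.41% did. Psmb1 and Psmb4 differed between kidney and gastrocnemius by 0.39 and 0.49 (adjusted p = 6.1e-06 for each) and Psmb5 by 0.41 (adjusted p = 0.00015), all higher in kidney. Psmb5 also differed between liver and gastrocnemius, by 0.32 (adjusted p = 0.012).

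The immunoproteasome subunits, which replace the catalytic ones in immune and interferon-treated cells, were taken beside the constitutive ones, and no test compared the sets. In kidney Psmb8 ran from 0.895 to 1.27 in young, from 1.41 to 3.80 in aged and from 1.249 to 2.16 in treated libraries, a log2 change of 1.08 with age (adjusted p = 2.84e-06) and of -0.52 with RAD001 (adjusted p = 0.0118). All 3 immunoproteasome subunits rose with age in kidney and in liver and 2 of 3, Psmb8 and Psmb9, in gastrocnemius. Of all loci 20.8%, 7.86% and 17% rose in these tissues. In liver and gastrocnemius the log2 change of Psmb8 with age was 0.50 and 0.68 (adjusted p = 0.00462 and 2.68e-05) and with RAD001 -0.15 and -0.05 (adjusted p = 0.416 and 0.853).

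Other genes of the pathway were taken from lists. A list drawn up around Nrf1 held Ddi2 and also Nfe2l2, the gene of Nrf2, with Maff, Bach1 and Sqstm1. Of its 8 measured genes 6 rose with age in gastrocnemius, where 17% of all loci rose. Sqstm1, an autophagy receptor, went from 18.1 ± 1.13 to 26.4 ± 3.41 (log2 change 0.53, adjusted p = 1.11e-07), and 0 of 8 were called with RAD001 (limma, 1 lower at an unadjusted p under 0.05). Nfe2l1, the gene of Nrf1, was not analysed here, so these counts do not show whether Nrf1 changed. In kidney 2 of these 8 rose and 2 fell with age, near the 20.8% and 22.2% of all loci, and 1, Sqstm1, rose with RAD001, where 18.3% of all loci rose. In liver 1 of 7 rose with age, where 7.86% of all loci rose, and 0 were called with RAD001 (limma, 3 higher and 1 lower at an unadjusted p under 0.05). Among ubiquitin genes, E1 enzymes and Vcp, 5 of 14 rose and 3 fell with age in gastrocnemius, where 17% and 18.4% of all loci did, and 1 fell with RAD001, where 1.65% of all loci fell. Vcp, the unfoldase that hands substrates to the proteasome, went from 9.67 ± 0.441 in young to 12.2 ± 0.765 in aged and 10.99 ± 0.745 in treated muscle (log2 changes 0.34 and -0.15, adjusted p = 1.57e-07 and 0.0442). In kidney 1 of 13 of these rose and 4 fell with age, where 20.8% and 22.2% of all loci did, and 5 rose and 1 fell with RAD001, where 18.3% and 19.1% did. In liver 0 rose and 3 fell with age (limma, 1 higher at an unadjusted p under 0.05), where 7.86% and 8.71% of all loci did, and 1 fell with RAD001, where 8.13% did.

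Usp14, a deubiquitinase bound to the base, rose with age in muscle (2.18 ± 0.177 to 2.39 ± 0.14, log2 change 0.13, adjusted p = 0.0279) and fell with RAD001 (2.08 ± 0.132, -0.19, adjusted p = 0.0255). It was the 1 of 10 bound receptors and deubiquitinases called in each, where 17% of all loci rose with age and 1.65% fell with RAD001. In kidney 4 of these 10 fell with age, where 22.2% of all loci fell, and 3 rose with RAD001, where 18.3% rose. In liver 1 fell with age, where 8.71% of all loci fell, while 3 rose and 3 fell with RAD001, where 7.62% and 8.13% did. Pomp, the maturation factor of the core particle, rose with RAD001 in kidney (10.8 ± 1.02 to 12.4 ± 0.836, log2 change 0.20, adjusted p = 0.00521), as did the assembly chaperone Psmg4 (2.15 ± 0.235 to 2.503 ± 0.16, 0.21, adjusted p = 0.00696), making 2 of the 4 assembly chaperones, where 18.3% of all loci rose. Pomp was not called with RAD001 in liver (-0.15, adjusted p = 0.155) or gastrocnemius (-0.14, adjusted p = 0.101). Among the activators and the inhibitor of the particle, Psme1 rose with age in each tissue, and Psme2 in kidney and liver, of 5 measured. Of all loci 20.8% rose with age in kidney, 7.86% in liver and 17% in gastrocnemius.

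Some members carry limits of identity. The Psmd10 locus lies on chromosome 3 in the deposited rn5 tables, while RefSeq places the gene on another chromosome, so this locus may not hold the functional gene. For 14 of the 35 members RefSeq lists a related copy or pseudogene by name, whose reads could be shared with the member. These are Psma2, Psma5, Psma6, Psma7, Psmb3, Psmb4, Psmb6, Psmb7, Psmc4, Psmc6, Psmd1, Psmd8, Psmd12 and Psmd14. They include every member that fell with RAD001 in gastrocnemius except Psma1 and Psmb1. The part of such shared reads in the changes was not tested.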

How the data were processed

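Total RNA from 84 rat tissue samples was sequenced, and reads were aligned with STAR 2.4.5a to rn5, per the submitters' processing notes. No source used here names the tool and annotation that summarised reads over loci. What the authors deposited is a coverage signal per base of exon with a factor per library, a unit read from the values: on 49 to 132 short loci per library the value times the length was a whole multiple of 1 step for 100.0% of loci (tolerance 0.001), the step being chosen from the same loci. Its inverse gave the relative depth, which limits the precision of low loci.

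Within a tissue, a locus entered with a value of 0.1 or more in 8 or more libraries. Scaling used the trimmed mean of log ratios (30% trimmed per side), and log2(scaled signal + 0.1) was fitted with limma 3.58.1 in R 4.3.3 (lmFit, eBayes with a trend) with 3 group means over 28 libraries and 25 residual degrees of freedom. A fold change on this scale understates the change of low loci. Calls have a Benjamini-Hochberg adjusted p under 0.05. Differences between tissues were tested in 1 fit of 9 group means, which took all libraries as independent, although tissues may share rats. No pair of libraries was identical (0 pairs, highest correlation of log2 values 0.996).

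The members and gene lists were chosen with earlier results of these data known. Named members are, per tissue and comparison, the 3 raised and 3 lowered with the smallest p among those called, with Psmb5, Psmb6 and Psmb7 always, and up to 3 called genes per pathway list with Pomp and Psmb8. Others, such as those singled out in the tissue comparisons, were chosen after their values were seen. Alternatives were other scalings, filters and pseudocounts, the replicate number as a block, the 7SL level as a covariate and each library left out. Known changes put into shuffled residuals were used to test the fits. Plots used matplotlib 3.10.9, and other steps pandas 2.3.3 and numpy 2.4.6 in Python 3.11.15 and the R package for fast tables in version 1.17.8.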

Additional observations from a re-analysis of the deposited data

Results flagged for a closer look

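Of 117 groups of libraries tested for a library far from the rest, 8 had one, where chance gives about 1 in 20. In treated gastrocnemius replicate 2, Psmb3 stood at 6.54 against 3.78 to 4.77 in the other libraries, and the median over the members at 0.15 against -0.0602 to 0.0147. In treated liver replicate 9, Psmb7 stood at 5.55 against 4.26 to 4.85, Psmd2 at 2.02 against 2.37 to 2.67, and the median over the members at 0.0172 against -0.162 to -0.0908. Psmd11 was low in young gastrocnemius replicate 9, with 1.39 against 1.54 to 1.69, and high in aged gastrocnemius replicate 4, with 2.65 against 1.69 to 2.16. Psmd1 was high in aged kidney replicate 10, with 3.18 against 2.77 to 2.97.

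The change with age differed between tissues, by an interaction term in limma, for 1 member between kidney and liver (Psmc6, log2 difference 0.29), for 15 between kidney and gastrocnemius (Psmd2 with the smallest p, -0.42) and for 17 between liver and gastrocnemius (Psmd11, -0.51). The change with RAD001 differed for 10 members between kidney and liver (Psmc5, -0.62), for 13 between kidney and gastrocnemius (Psmb1, 0.39) and for 7 between liver and gastrocnemius (Psmb5, 0.32).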

How the results depend on the processing

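Of the 101 member calls, 101 stayed under median-of-ratios scaling and under pseudocounts of 0.01 and 0.5, 88 under upper-quartile scaling, 66 with values as deposited, 94 without a filter, 84 with a filter of at least 1 in 8 libraries, and 71 with the 7SL covariate, where the change of Psmb5 in kidney against young reversed to -0.0172 (adjusted p = 0.911). Below, counts of members are given where they moved by over 1.5 times. The share of all loci called was not computed for these settings. Where other loci entered the fit, other scaling factors and other adjustment follow by construction, and for the rest the cause was not tested.

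In kidney, the count lowered with age was 4 under upper-quartile scaling, 1 with values as deposited and 2 with the filter of 1, where 2 were raised. With RAD001 in kidney, 3 were raised as deposited, 3 with the filter of 1 (13 lowered) and 0 with the 7SL covariate (4 lowered), and against young 8 were lowered as deposited and 0 raised with the 7SL covariate. In liver, 2 were lowered with age as deposited. With RAD001 in liver, 3 were raised under median-of-ratios scaling, 3 under upper-quartile scaling (3 lowered), 3 with the filter of 1, and 0 as deposited or with the 7SL covariate (2 lowered). Against young, 1 was raised in liver without a filter, 4 with the filter of 1 and 0 with the 7SL covariate. In gastrocnemius, 0 were lowered with RAD001 and 0 against young as deposited, and against young 10 were raised and 2 lowered with the filter of 1. As deposited, the members that differed between tissues numbered 0 for age in kidney and liver, 5 for RAD001 in kidney and liver and 1 for RAD001 in liver and gastrocnemius, and young kidney was higher than liver for 24 and lower for 2, and higher than gastrocnemius for 14 and lower for 8.

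Sets of libraries were left out in alternatives chosen after seeing the data. Without the 6 livers with 7SL under 15000, 1 member was lowered with RAD001 and 0 raised against young. Without the 4 muscles with adipocyte markers of 8 or more, 4 were lowered with RAD001 and 3 against young. Without the 3 kidneys with muscle markers of 1 or more, 35 of 39 calls stayed. With each library left out in turn, 1 to 3 were raised and 2 to 7 lowered with RAD001 in liver, and 1 to 2 raised there against young. In gastrocnemius 0 to 1 were lowered with age (1 without aged replicate 4 or 10) and 1 to 5 raised against young in the same runs.

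Same-numbered libraries were compared only between groups within a tissue: correlations of their deviations ran from -0.261 to 0.363, and at most 4 of 8 libraries matched their own number best. Those 4 were between aged and treated gastrocnemius, where the median was 0.123, against -0.0245 over all combinations of numbers. Whether same-numbered libraries of different tissues come from the same rat was not tested. With the replicate block, 91 of the 101 calls stayed, and in liver 0 were raised and 3 lowered with RAD001.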
